A study of Homo sapiens with 4 samples.

Results

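The metallothionein genes, their metal-sensing regulator MTF1 and the zinc transporter genes of the SLC30A and SLC39A families were followed in MiaPaCa2 cells treated with LY101-4B. Members were the genes with a single-symbol probe set on the array whose symbol was MT1 with one letter, MT2A, MT3, MT4, MTF1, or SLC30A or SLC39A with a number. This gave 35 of 18417 genes: 10 metallothioneins, MTF1, 10 SLC30A genes and 14 SLC39A genes. Where a gene had several such probe sets, the brightest over the 4 arrays stood for it.

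MiaPaCa2 is a human pancreatic carcinoma line, kept here in DMEM with fetal calf serum. The vehicle group held 2 arrays and the LY101-4B group 2 arrays, each from cells treated for 24 h, the latter at 50 µM, and the series calls the samples of a group biological replicates. LY101-4B is presented by the series as an inhibitor of E2F, the transcription factor family that drives S phase entry. The treatment text attached to the same samples gives LY101-4D at 25 µM instead, whereas titles, agent labels and design text give LY101-4B at 50 µM. The question was how the cells respond to the compound. Each array sums RNA over a culture, so a change in every cell and a change in a share of the cells cannot be told apart.

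Metallothioneins are small cysteine-rich proteins that bind zinc, copper and cadmium in the cytosol and buffer free zinc. MTF1 is a zinc finger transcription factor that senses free zinc and binds metal response elements before the metallothionein genes and the zinc exporter gene SLC30A1. SLC30A proteins (ZnT) move zinc out of the cytosol, either out of the cell or into vesicles and the secretory pathway, and SLC39A proteins (ZIP) move it into the cytosol from outside or from those compartments. The exocrine and endocrine pancreas handle much zinc, and both families are well known there.

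The core of the metal response element was searched in the 250 bases before the start of each gene, because it is the sequence through which MTF1 acts on these genes. RefSeq promoters of GRCh38.p14 were matched for 27 of the 35 members, in 36 entries since some genes have several starts. The promoters of MT1E, MT1F, MT1G, MT1M, MT3, SLC30A8, SLC39A4 and SLC39A14 were not analysed here. The letters searched were TGCACNC and TGCGCNC on both strands. These matches overlapped neither each other nor the antioxidant response element core (TGACNNNGC) in any member. Below, capitals mark the matches. MT1H, MT2A and MT1X are shown as metallothionein promoters rich in the element, SLC30A1 as the classical transporter target of MTF1, and SLC39A7 as the member with the largest difference. Their windows were chr16:56669564-56669813, chr16:56608334-56608583 and chr16:56682220-56682469 on the plus strand, chr1:211579162-211579411 on the minus strand and chr6:33200617-33200866 on the plus strand.
MT1H: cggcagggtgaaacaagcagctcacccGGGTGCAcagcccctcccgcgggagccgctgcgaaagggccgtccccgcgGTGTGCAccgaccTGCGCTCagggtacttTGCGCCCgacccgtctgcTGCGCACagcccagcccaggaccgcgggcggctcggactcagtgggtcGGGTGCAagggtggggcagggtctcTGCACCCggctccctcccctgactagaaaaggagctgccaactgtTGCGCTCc
MT2A: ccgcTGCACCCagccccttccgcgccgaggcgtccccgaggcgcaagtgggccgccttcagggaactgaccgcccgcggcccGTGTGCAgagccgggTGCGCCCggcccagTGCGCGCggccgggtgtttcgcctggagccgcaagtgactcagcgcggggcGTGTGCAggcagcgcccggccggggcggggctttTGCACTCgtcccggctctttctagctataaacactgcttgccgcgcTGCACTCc
MT1X: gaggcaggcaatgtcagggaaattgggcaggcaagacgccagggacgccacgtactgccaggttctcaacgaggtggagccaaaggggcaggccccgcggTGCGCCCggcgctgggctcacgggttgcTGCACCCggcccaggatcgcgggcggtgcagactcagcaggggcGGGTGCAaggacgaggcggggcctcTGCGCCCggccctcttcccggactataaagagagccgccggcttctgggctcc
SLC30A1: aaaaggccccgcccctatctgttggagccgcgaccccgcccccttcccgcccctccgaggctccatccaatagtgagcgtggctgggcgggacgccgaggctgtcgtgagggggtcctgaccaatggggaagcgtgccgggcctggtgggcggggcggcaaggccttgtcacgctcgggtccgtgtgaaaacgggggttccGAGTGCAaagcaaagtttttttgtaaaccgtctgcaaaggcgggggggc
SLC39A7: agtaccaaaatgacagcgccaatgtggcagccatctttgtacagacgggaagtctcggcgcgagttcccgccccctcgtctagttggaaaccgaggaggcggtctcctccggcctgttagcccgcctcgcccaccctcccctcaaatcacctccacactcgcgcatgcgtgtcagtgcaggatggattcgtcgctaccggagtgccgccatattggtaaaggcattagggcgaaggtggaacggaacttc

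MT1H held 8 matches, MT2A 7, MT1X 4, SLC30A1 1 and SLC39A7 0. All 5 metallothioneins with a promoter in the table had at least 2 matches, and 3 of them had 4 or more. Of the 21 transporter genes whose promoter was analysed, 10 had a match, 2 had at least 2 and 0 had 4 or more. Among all 35116 promoter windows of the same length, 24.8% held at least 1 match and 0.37% held 4 or more. Near the SLC30A1 start the single match lay 43 to 49 bases upstream. The antioxidant response element core, through which NRF2 acts, was present in 12 of the 27 members and in 10.9% of all windows. It was found in MT2A, MT1X, SLC30A1 and SLC39A7 of those shown. The composite core bound by CHOP and ATF4 (TGATGNAAT) was in 0 of the 27 and in 0.888% of all windows, and the endoplasmic reticulum stress element in 0 and 0.074%. A gene with several starts counted when any of its windows held the letters, whereas the shares over all promoters are per single window. The gene counts and those shares are thus in unlike units, and a gene with several starts had more windows in which to match. A match describes the letters and is not evidence that a factor was bound.

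Array values are log2 RMA units, in which 1 unit is a doubling of signal, and differences are LY101-4B minus vehicle. A gene was called when its limma p, adjusted over all 21214 gene-annotated probe sets by the Benjamini-Hochberg method, was under 0.05. The median array value was 5.88 to 5.97, replicate arrays correlated at 0.997 (vehicle) and 0.994 (LY101-4B), and r between groups was 0.978 to 0.981. The epithelial keratins KRT8 and KRT18 and the mesenchymal filament gene VIM averaged 12.77, 12.94 and 12.64 in vehicle, whereas the epithelial adhesion genes CDH1 (4.49) and EPCAM (3.94) were dim. KRT8 and KRT18 fell with LY101-4B, whereas the keratin KRT19 (9.22 in vehicle) differed by -0.09 and was not called. The 11 markers of immune, endothelial, acinar and islet cells measured here had vehicle means between 3.51 and 6.09, and 0 of them were called by limma or had an unadjusted p under 0.05. Of the 6 fibroblast markers COL1A2 was bright (9.89) and rose, COL3A1 (6.71) fell, and DCN (3.46) and LUM (3.16) were dim. No detection calls were used here, so dim probe sets could not be called absent.

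In total 8 of the 35 members rose with LY101-4B, 1 fell and 26 were not called. Over all tested probe sets 9.1% rose and 10.5% fell, or 19.6% in either direction, against 25.7% of the members. At an unadjusted limma p under 0.05, 15.2% of all tested probe sets lay higher and 17% lower, or 32.2% in all. The share called depends on signal. Among the brighter 50% of probe sets 33.3% were called, against 29.2% of the 24 members that lay there; in the dimmer 50% it was 5.96%, against 18.2% of the 11 members there. For the brighter members the share called is thus near the background of like signal, and the dimmer ones called were MT1H and SLC39A8. Groups did not overlap in 23 of the 35 members, or 65.7%, and in 58% of all tested probe sets. The median difference was 0.13 over the members and 0.01 over all tested probe sets. With arrays centred on their medians, which moves the median of all tested probe sets to -0.05, 7 members were called higher and 2 lower.

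**Figure D1:**
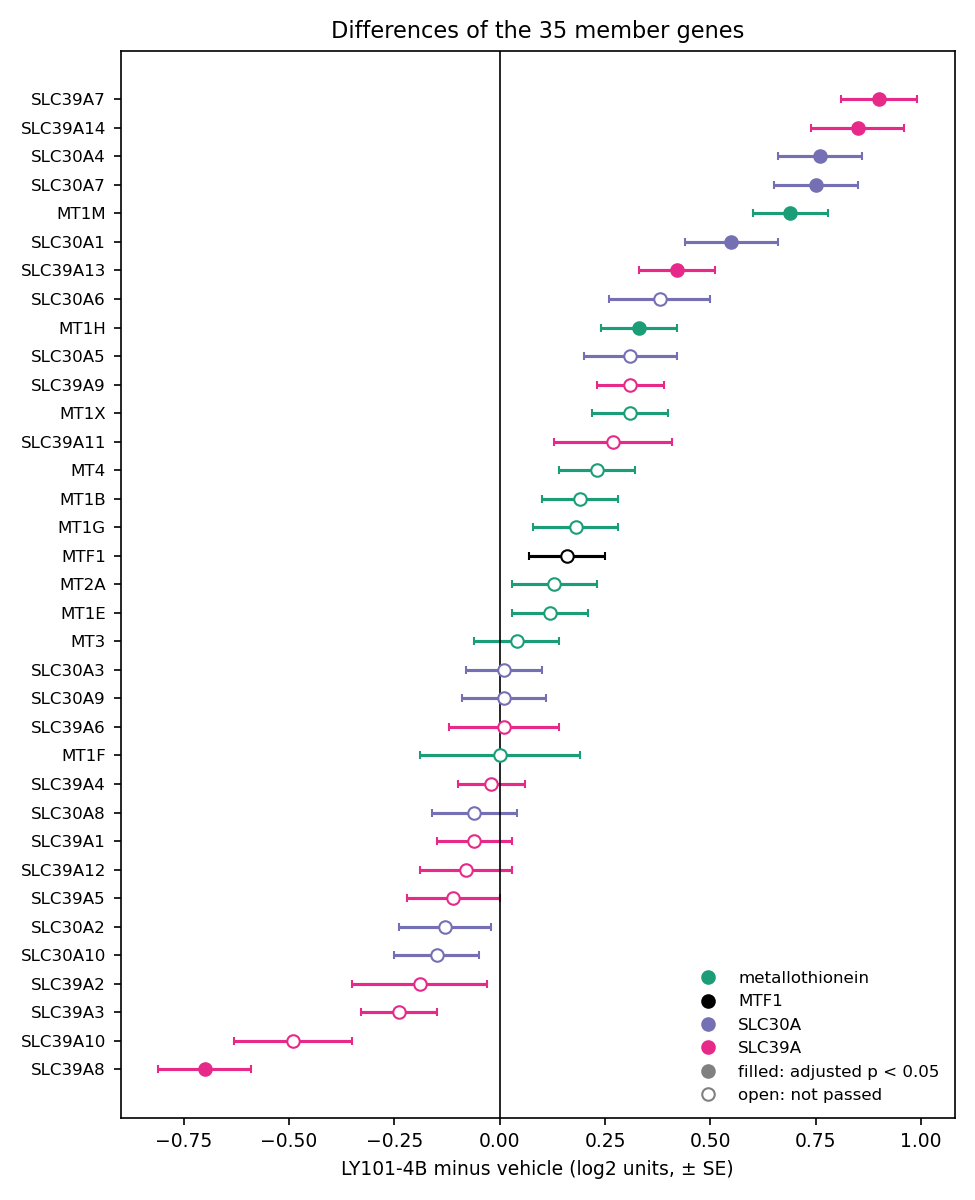
Difference between LY101-4B and vehicle arrays for each of the 35 genes on the x axis (log2 units), with the moderated standard error as bars, coloured by family; filled points had an adjusted p under 0.05. SLC39A7 (0.90) stands at the top, SLC39A8 (-0.70) at the bottom, and most metallothioneins lie between 0 and 0.33.

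Among the metallothioneins MT1M and MT1H rose, 0 of 10 fell, and 8 were not called. The 2 of 10 called is close to the 19.6% over all tested probe sets. At an unadjusted limma p under 0.05, 3 lay higher and 0 lower, against 15.2% and 17% of all tested probe sets. Their median difference was 0.18 log2 units, in a range from 0.00 to 0.69. MT1M, an inducible isoform, read 8.86 and 8.98 on the vehicle arrays and 9.61 on each LY101-4B array. Both treated arrays lay above both vehicle arrays and did not differ from each other at this rounding. The difference was 0.69 ± 0.09 (SE), a 1.62-fold rise (limma adjusted p 0.00558). MT1H, another isoform of the same chromosome 16 cluster and the promoter with the most matches shown above, read 6.28 and 6.24 with vehicle and 6.56 and 6.61 with LY101-4B. Its groups were also apart, by less than those of MT1M. MT1H rose 1.25-fold (0.33 ± 0.09; limma adjusted p 0.0487), a call lost in each of the 10 alternatives run (adjusted p 0.0508 to 0.29). The call of MT1M was lost without vehicle replicate 1 (0.0525) and held in the other 10 alternatives, which started at 0.000367.

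The bright, widely expressed isoforms differed little. MT2A, the main human metallothionein in most tissues, read 13.28 and 13.30 with vehicle and 13.32 and 13.52 with LY101-4B. The first treated array lay barely above the vehicle arrays, and the difference of 0.13 ± 0.10 was not called (limma adjusted p 0.468). Only 0.066% of tested probe sets were brighter than this one, and whether its signal was near the ceiling of the array was not tested. The 2 dimmer MT2A probe sets differed by 0.16 and 0.15 and were not called either.

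MT1X, an isoform strongly inducible by metal in many lines, read 11.22 and 11.25 with vehicle and 11.51 and 11.59 with LY101-4B. The 2 groups were clearly separate, but the difference of 0.31 ± 0.09 just missed the threshold (limma adjusted p 0.0596). It passed in 3 of 11 alternatives, namely the brighter 50% of probe sets (0.0169), cyclic loess (0.0184) and an intensity trend (0.00261), and ranged up to 0.32. MT1E read 11.23 and 11.30 against 11.44 and 11.33 with LY101-4B, and MT1G 11.37 and 11.52 against 11.62 on both treated arrays. Neither was called (0.12 ± 0.09 and 0.18 ± 0.10), and in both the groups were separated by no more than 0.10.

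MT1F was the only metallothionein whose LY101-4B arrays lay on either side of the vehicle arrays. It read 8.77 and 8.62 with vehicle and 8.42 and 8.96 with LY101-4B. The gap of 0.54 between its treated replicates was the largest of any member, so the difference of 0.00 ± 0.19 had a wide error. MT1B read 6.14 and 6.09 with vehicle and 6.26 and 6.34 with LY101-4B, a separation too small to be called (0.19 ± 0.09).

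The tissue-restricted forms were not called. MT3, the growth inhibitory form of brain, read 7.29 and 7.21 with vehicle and 7.36 and 7.22 with LY101-4B, and its groups overlapped (0.04 ± 0.10, or -0.01 with median centring). MT4, the form of squamous epithelium and a dim probe set, read 5.81 and 5.84 against 5.98 and 6.12. Its groups did not overlap, yet the difference of 0.23 ± 0.09 was not called (limma adjusted p 0.163).

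**Figure D2:**
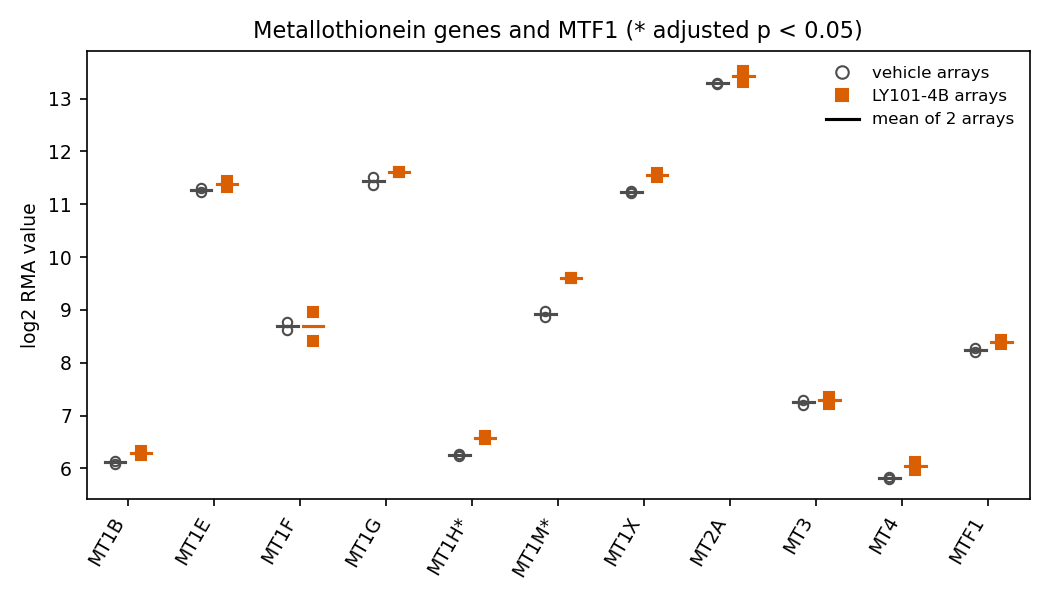
Log2 RMA value (y axis) of the 10 metallothionein genes and MTF1 on each of the 2 vehicle arrays (open circles) and 2 LY101-4B arrays (filled squares), with the mean of each pair as a line. MT1M shows the widest separation (8.86 and 8.98 against 9.61, where both treated arrays fall on one spot), and the treated arrays of MT1F spread from 8.42 to 8.96.

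The metallothionein genes lie side by side on chromosome 16 and are close copies of one another, so their probe sets may pick up each other's transcripts; the share of such signal was not tested. Probe sets for 6 relatives outside the rule (MT1DP, MT1HL1, MT1IP, MT1JP, MT1P3 and a probe set shared by NUTF2 and MT1L) all had a positive difference, between 0.07 and 0.27. In all 6 the treated arrays lay above both vehicle arrays. Of all 21214 tested probe sets, 10804 had a positive difference and 6045 had the treated arrays above both vehicle arrays. Of the relatives 0 of 6 were called by limma. An unadjusted limma p under 0.05 was reached by 2 of the relatives, both higher. Over all tested probe sets 15.2% lay higher at that level, and 32.2% reached it in either direction. Over the 8 members of the MT1 and MT2 classes the median displacement from the vehicle mean was 0.17 on LY101-4B replicate 1 and 0.25 on replicate 2, so both treated arrays lay on the same side. MTF1 itself read 8.28 and 8.20 with vehicle and 8.36 and 8.44 with LY101-4B. Its treated arrays were the higher ones, but the difference of 0.16 ± 0.09 was not called (limma adjusted p 0.283).

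Of the 10 zinc exporter genes of the SLC30A family 3 rose and 0 fell, against 9.1% and 10.5% of all tested probe sets, and the median difference was 0.16. At an unadjusted limma p under 0.05, 5 lay higher and 0 lower, against 15.2% and 17%. SLC30A4, a transporter of endosomal vesicles that is needed for zinc in milk in mice, read 7.15 and 7.24 with vehicle and 7.88 and 8.03 with LY101-4B. The treated arrays stood well clear of the vehicle arrays, a 1.70-fold rise (0.76 ± 0.10; limma adjusted p 0.0052). SLC30A7, which carries zinc into the Golgi, read 9.04 and 9.23 against 9.92 and 9.84. Here too the groups were far apart relative to the replicates, and the rise was 1.68-fold (0.75 ± 0.10; adjusted p 0.00647 by limma). Both calls held in all 11 alternatives, that of SLC30A7 only narrowly without vehicle replicate 1, where its difference was 0.66.

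SLC30A1, the exporter of the plasma membrane and the family's MTF1 target, read 8.54 and 8.66 with vehicle and 9.05 and 9.24 with LY101-4B. Its lowest treated array lay above its highest vehicle array, and it rose 1.46-fold (0.55 ± 0.11; limma adjusted p 0.0191). This call was lost without vehicle replicate 1 (0.132), without vehicle replicate 2 (0.0736) and when all rows of the table were tested (0.0645); the lowest of its alternatives was 0.00336.

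SLC30A5 and SLC30A6, which work as a pair in the early secretory pathway to load zinc onto secreted and membrane enzymes, moved less. SLC30A6 read 8.97 and 9.10 with vehicle and 9.30 and 9.54 with LY101-4B, and SLC30A5 8.89 and 9.03 against 9.16 and 9.37. In both the treated arrays were the higher ones, but neither difference was called (0.38 ± 0.12, limma adjusted p 0.0719, and 0.31 ± 0.11, adjusted p 0.124). SLC30A6 passed in 5 of its 11 alternatives (0.0221 to 0.335 over all) and SLC30A5 in 1 (0.0409 to 0.49). The other 5 exporters differed by -0.15 to 0.01 and were not called. SLC30A9, a transporter linked to mitochondria, was at 9.37 in both groups. SLC30A8, the transporter of insulin granules (4.81 and 4.75), the manganese exporter SLC30A10 (4.49 and 4.34), SLC30A2 (5.46 and 5.34) and the synaptic vesicle transporter SLC30A3 (6.32 in both) had low means in both groups.

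The SLC39A family split. SLC39A7, SLC39A14 and SLC39A13 rose, SLC39A8 fell and 10 of the 14 were not called, so 28.6% were called against 19.6% of all tested probe sets. The median difference was -0.04, with 6 positive and 8 negative members. SLC39A7, which releases zinc from the endoplasmic reticulum and Golgi into the cytosol, read 9.51 and 9.57 with vehicle and 10.42 and 10.45 with LY101-4B. Replicates differed by under 0.10 and the groups by 0.90 ± 0.09, which made this 1.86-fold rise the largest difference of any member (limma adjusted p 0.00225). Its 3 probe sets held identical values and were counted once. SLC39A14, a plasma membrane importer of zinc, iron and manganese, read 9.32 and 9.49 with vehicle and 10.17 and 10.35 with LY101-4B. Both treated arrays lay above both vehicle arrays, and it rose 1.81-fold (0.85 ± 0.11; limma adjusted p 0.00558). Calls of both genes held in all 11 alternatives.

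SLC39A8, the closest relative of SLC39A14 and likewise a carrier of zinc and manganese, moved the other way. It read 6.51 and 6.65 with vehicle and 5.79 and 5.97 with LY101-4B. The treated arrays were the lower ones, and SLC39A8 fell by 0.70 ± 0.11 log2 units (limma adjusted p 0.00896). The call was lost without vehicle replicate 2 (0.0644), with 0.00433 the lowest of its 10 alternatives.

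SLC39A13, a Golgi and vesicle transporter whose loss causes a form of Ehlers-Danlos syndrome, read 7.16 and 7.28 with vehicle and 7.65 and 7.63 with LY101-4B. The groups were apart and the rise was 1.34-fold (0.42 ± 0.09; limma adjusted p 0.0271). The difference stayed between 0.36 and 0.48 with 1 array left out, but the call was lost without any one of the arrays (0.216 and 0.11 without vehicle replicates 1 and 2, 0.0703 and 0.0543 without LY101-4B replicates 1 and 2) and over all rows (0.0767). It held in the other 6 alternatives of 11. Its lowest value over the alternatives was 0.00688. SLC39A9, another Golgi transporter, read 9.14 and 9.11 with vehicle against 9.46 and 9.42. The treated arrays were higher by 0.31 ± 0.08, which just missed the threshold (limma adjusted p 0.0549; 0.0121 to 0.306 over its alternatives, 3 of 11 passing).

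SLC39A10, an importer that pairs with SLC39A6, read 10.10 and 10.24 with vehicle and 9.51 and 9.85 with LY101-4B. Both treated arrays were lower, and the difference of -0.49 ± 0.14 was not called (limma adjusted p 0.0601); it passed in 5 of 11 alternatives (0.0149 to 0.259 over all). SLC39A6 itself was at 8.66 and 8.67. The importers SLC39A1 (8.41 and 8.34), SLC39A3 (7.42 and 7.19) and SLC39A4 (6.80 and 6.78), the last mutated in acrodermatitis enteropathica, were not called. SLC39A11 (6.83 and 7.09) and the dim SLC39A2 (4.93 and 4.74), SLC39A5 (5.82 and 5.71) and SLC39A12 (3.75 and 3.66) were not called either.

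**Figure D3:**
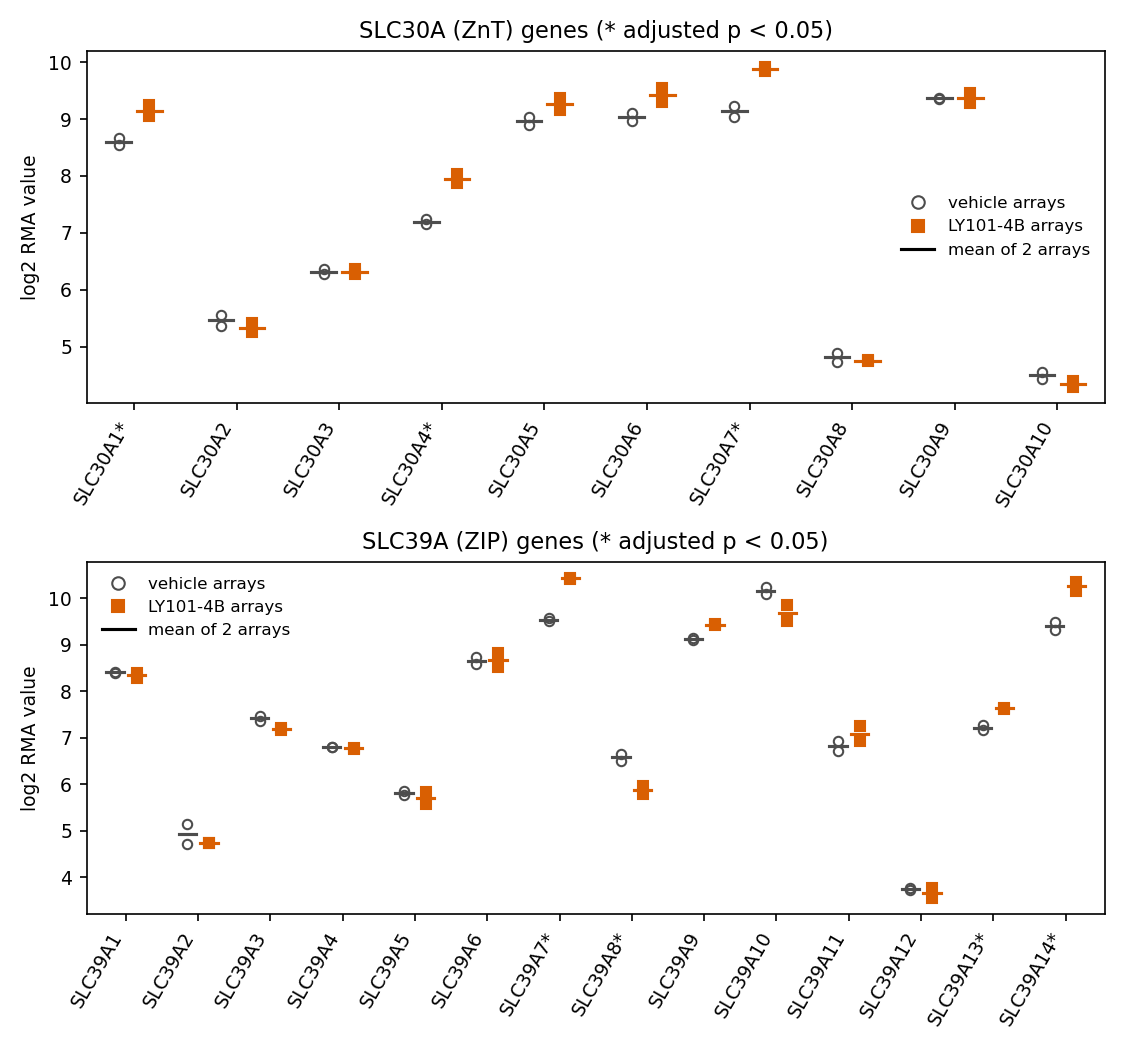
Log2 RMA value (y axis) of the 10 SLC30A genes (upper panel) and 14 SLC39A genes (lower panel) on each vehicle array (open circles) and LY101-4B array (filled squares), with group means as lines and called genes starred. SLC30A4, SLC30A7, SLC39A7 and SLC39A14 are well above vehicle, and SLC39A8 lies below it.

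Some transporters were grouped by where the proteins are known to act. A group of 6 was taken for the early secretory pathway (SLC30A5, SLC30A6, SLC30A7, SLC39A7, SLC39A9 and SLC39A13). All 6 read higher on both treated arrays than on both vehicle arrays, and 3 of them were called higher. Over all tested probe sets 58% did not overlap in either direction, and 6045 of 21214 did so with the treated arrays higher. Called were 19.6% in either direction and 9.1% higher, and 33.3% in either direction among the brighter 50%. The median difference of the 6 transporters was 0.40, with a displacement of 0.38 on LY101-4B replicate 1 and 0.46 on replicate 2. A group of 9 plasma membrane importers (SLC39A1 to SLC39A6, SLC39A8, SLC39A10 and SLC39A14) had a median of -0.11, with 1 called higher and 1 lower. The other transporters were placed in neither group. Among them were SLC39A11 and SLC39A12, which were not called and whose vehicle and treated arrays overlapped. Both site groups were drawn up with the values known, so their counts support nothing by themselves, and the difference between them was not tested.

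Both exporters and importers are thus among the genes called, and the 4 calls that held in every fit with 1 array left out were those of SLC30A4, SLC30A7, SLC39A7 and SLC39A14. Of the 9 called members 2, MT1H and SLC39A13, passed in none of those fits. A fit to 3 arrays leaves 1 group with a single array, which is assumed to vary like the other group, and has 1 residual degree of freedom in place of 2, so calls can be lost there while the difference stays as large.

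**Figure D4:**
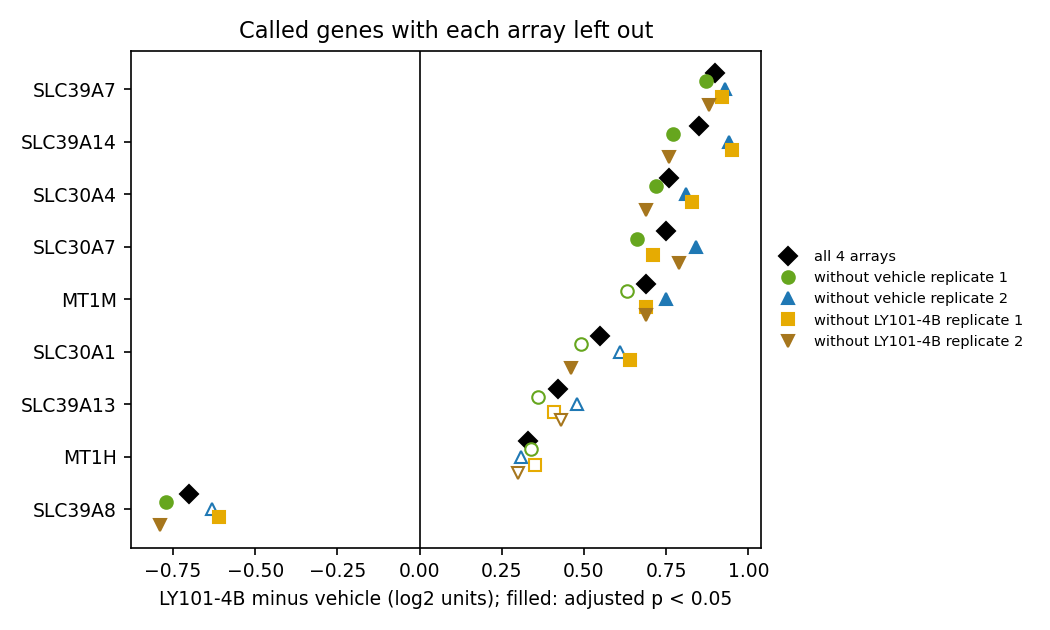
Difference between LY101-4B and vehicle (x axis, log2 units) of the 9 called genes with all 4 arrays (diamonds) and with each array left out in turn; filled symbols had an adjusted p under 0.05. Differences stay within 0.87 to 0.93 for SLC39A7 and 0.30 to 0.35 for MT1H, whose 4 symbols are open.

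Other metal genes were read from the same fit. Of 9 measured metal and thiol stress genes, which metals and electrophiles induce through NRF2 or heat shock factor, 5 rose and 0 fell. That is 55.6% called, against 19.6% of all tested probe sets (9.1% higher and 10.5% lower). The median difference was 0.71, against 0.18 for the metallothioneins. The thioredoxin reductase gene TXNRD1 (0.71 ± 0.09) and the sulfiredoxin gene SRXN1 (0.96 ± 0.09) rose next to SLC7A11 (2.92), HMOX1 (2.59) and GCLC (1.86). Those that did not pass were the glutathione synthesis gene GCLM (0.10) and the heat shock genes BAG3 (-0.26), DNAJB1 (-0.07) and HSPA6 (-0.14). At an unadjusted limma p under 0.05, 1 of the 9 lay lower, against 17% of all tested probe sets.

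Of 12 measured copper genes 2 rose and 3 fell. That is 41.7% called, against 19.6% of all tested probe sets (9.1% higher and 10.5% lower) and 33.3% of the brighter ones. Vehicle and treated arrays did not overlap in 91.7% of these genes, against 58% of all tested probe sets. The copper importer gene SLC31A1 read 9.68 on each vehicle array and 10.21 and 10.68 with LY101-4B, a rise of 0.77 ± 0.16 (limma adjusted p 0.0246). CCS, the copper chaperone for superoxide dismutase, rose by 0.43 ± 0.09, whereas its client SOD1 fell by 0.38 ± 0.08. The mitochondrial copper genes SCO1 and COX11 fell by 0.47 ± 0.09 and 0.40 ± 0.10. Limma adjusted p-values of these 4 were 0.0165 to 0.0384.

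Among 9 other divalent metal genes the channel kinase gene TRPM7 rose (0.54 ± 0.14, limma adjusted p 0.0442) and 0 fell (0 also at an unadjusted p under 0.05). Of 10 zinc-dependent surface enzymes the shedding protease gene ADAM17 rose, from 9.27 and 9.28 to 10.22 and 10.35 (1.01 ± 0.09, limma adjusted p 0.00199), 0 fell, and 1 lay lower at an unadjusted p under 0.05. Its relative ADAM10 differed by -0.37 ± 0.11 and was not called. The share called was 11.1% of the other divalent metal genes and 10% of the surface enzymes, against 19.6% of all tested probe sets. The 4 lists of metal genes were not tested against the members or against each other.

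**Figure D5:**
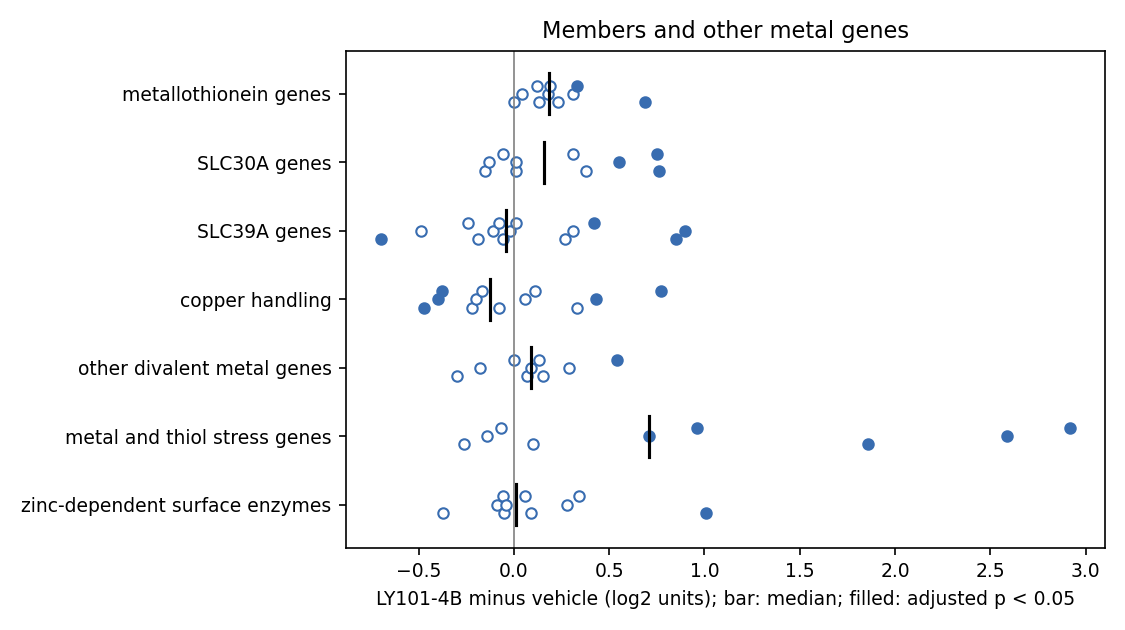
Difference between LY101-4B and vehicle (x axis, log2 units) for each gene of the 3 member families and of 4 lists of other metal genes, with the median of each row as a bar and called genes filled. The metal and thiol stress genes reach 2.92, whereas the metallothioneins end at 0.69.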

How the data were processed

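Total RNA of 4 MiaPaCa2 cultures was hybridised to Human Gene 1.0 ST arrays, per the labels. The deposited table holds log2 expression values for 33297 probe sets, credited to RMA per the submitters' processing notes; RMA makes array distributions alike, so a difference is measured against the general run of probe sets. For software version, probe set definitions and filters the entry is: not given in the sources used here. Per the labels' protocols, RNA was labelled with a kit usually used for small RNA; whether that entry describes these arrays is uncertain.

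Genes came from the platform annotation: 19460 probe sets had 1 symbol, 1754 several and 12083 none. All 35 member symbols matched RefSeq by gene ID. The 21214 annotated probe sets were fitted by treatment alone with limma 3.58.1 in R 4.3.3 (2 residual degrees of freedom, prior worth 3.75; 2-sided p, threshold 0.05), after tests on simulated data. Array number limits the precision. Alternatives were all rows, the brighter 50%, median centring, cyclic loess, an intensity trend, a robust prior, a replicate block and each array left out. Every member was named; other genes came from 4 lists of metal genes, called or with the largest differences, and from cell type markers. GCLM, BAG3, DNAJB1, HSPA6 and ADAM10 were named after their values were seen. Members, lists and site groups were chosen with earlier results of these data known. Group means are over n = 2 arrays.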

Additional observations from a re-analysis of the deposited data

How the results depend on the processing

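Of 378 comparisons of a member's difference with an alternative, 322 kept direction and side of the threshold, 20 lost the call, 17 gained one and 19 changed sign. The comparisons include the other probe sets of MT2A and SLC39A7. Those of SLC39A7 held values identical to the main one, so they could only match it. When all rows were tested, 2433 probe sets were called in place of 4166. The 2 metallothionein calls became 1 over all rows, with median centring, with a robust prior and with the replicate block, and the 3 SLC30A calls became 5 with cyclic loess. With 1 array left out, calls ranged from 1610 to 4366 for all probe sets, from 5 to 8 for the members, from 0 to 1 for metallothioneins and from 2 to 4 for the SLC39A genes. The lowest counts of members came without either vehicle array. Sign changes concerned members that were not called. With median centring MT3 lay at -0.01, SLC30A3 and SLC30A9 at -0.05 and SLC39A6 at -0.04; with cyclic loess MT1F lay at 0.06 and SLC30A3 at -0.04. With 1 array left out, the range was -0.27 to 0.27 for MT1F, -0.03 to 0.11 for MT3, -0.05 to 0.06 for SLC30A3, -0.14 to 0.02 for SLC30A8, -0.09 to 0.10 for SLC30A9, -0.41 to 0.03 for SLC39A2, -0.23 to 0.01 for SLC39A5, -0.14 to 0.16 for SLC39A6 and -0.19 to 0.02 for SLC39A12. The causes were not tested. Titles number the samples of both groups 1 and 2, and no other pairing is given. Over all tested probe sets replicate 1 minus 2 correlated at 0.116 between groups. Of the 35 members, 26 were higher on replicate 2 than on replicate 1 in the vehicle group, and 26 in the LY101-4B group. Whether replicates of the same number share a batch was not tested. With the replicate block 10 members were called (8 higher, 2 lower). MT1H, SLC39A8 and the other 9 dimmer members lay outside the brighter 50%, so that alternative gave them no value. Low signal without detection calls limits the dim members.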
